A study of Drosophila melanogaster with 64 samples.

Results

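Testes of Drosophila melanogaster larvae that carried the male-sterile translocation T(1;2)BM24 were compared with testes of larvae from the irradiated parental stock. The comparison used 8 of the 64 libraries of the study, 4 titled as the sterile translocation BM24 at the last larval instar (L3) and 4 titled as the parental control at that stage. Membership came from the library titles and from no measured value. In a T(1;2) translocation, a piece of the X has been exchanged with a piece of chromosome 2. The labels give the stock genotype of the BM24 group as FM7i, P{ActGFP}JMR3 over T(1;2)BM24, and that of the parental group as C(1)M4, y. Both groups carry the same Dp(1;1)scV1 X chromosome, marked with y2, y+, sc+, scV1, su(wa), wa, cv, v and f (the labels print a gamma for each y). Flies were reared at 25 °C, and each library was a pool of 15 testes from male larvae that had stopped moving and had not yet everted the anterior spiracles. Fat body had been taken off with papain and collagenase. BM24 is 1 line, and its stock was kept with the FM7i balancer while the parental stock was kept with compound-X C(1)M4 females, so the translocation, the stock background and the line cannot be told apart. The sources used here do not give the breakpoints of BM24. The labels do not say that the pools came from separate crosses, so p-values reflect how these pools vary, and part of that spread may be technical.

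The larval testis is a sac of germ cells wrapped in somatic cells. Spermatogonia divide at the apical tip around the hub, are enclosed by somatic cyst cells, and become primary spermatocytes, which grow and transcribe nearly all genes that meiosis and sperm formation need. Translocations between the X and an autosome often make Drosophila males sterile, and the study compared sterile translocations (BM1, BM5, BM6, BM24 and BM46), fertile ones (BM4 and BM21) and the stock they came from. The other sterile lines were kept with FM7i like BM24, and the fertile ones with C(1)M4 like the parental stock.

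Total counts ran from 8961413 to 14845562 in the 4 parental libraries and from 12077672 to 19054887 in the 4 BM24 libraries. The first principal component of the 8 libraries held 71.1% of the variance and separated the groups. Germline and cyst cell markers fitted the label. Summed levels of 12 spermatocyte markers were 2810 to 3132 counts per 1000000 counts (CPM) in BM24 and 2921 to 3192 in the parental stock, and those of 7 spermatogonial markers were 504.7 to 554.6 and 492.5 to 547.7. Salivary gland markers summed to at most 0.525 CPM, with Sgs4 and Sgs5 at 0 counts. Muscle markers, at low levels, did not overlap between the groups, with 6.48 to 9.31 CPM in BM24 and 3.21 to 4.58 in the parental stock. Fat body transcripts varied most within BM24. The 19 genes of the fat body list summed to 745.9, 778.5, 1727 and 2652 CPM in BM24 replicates 1 to 4 and to between 603.5 and 797.3 CPM in the parental libraries, so that BM24 replicates 3 and 4 stood apart from the other 6. Counts of called genes, and list counts that then moved by over 1.5 times, are therefore also given without these 2, an alternative chosen after the fat body levels were seen. In pooled tissue, fewer cells of a type and less RNA per cell cannot be told apart.

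Changes were widespread and mostly small. Of 12071 tested genes, 2801 were higher in BM24 (23.2%) and 2382 lower (19.7%), 5183 in all (42.9%), at an adjusted p under 0.05 (edgeR quasi-likelihood F test with Benjamini-Hochberg adjustment, as for every adjusted p here). The median size of a called change was 0.45 on the log2 scale, and 664 genes rose (5.5%) and 402 fell (3.33%) by at least 2-fold, 8.83% of those tested. The median change of all tested genes was 0.02. Counts of called list members below are to be read beside these shares of 23.2% higher, 19.7% lower and 42.9% in all. Without BM24 replicates 3 and 4, 2142 genes were higher and 1907 lower.

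The strongest increases were genes near 0 in the parental stock. The rule behind these names took called genes whose mean log2 CPM was 1 or more and whose libraries did not overlap between groups, a criterion that 1971 genes (16.3%) met upward and 1833 (15.2%) downward, and then the 12 largest changes each way. The long noncoding RNA lncRNA:CR44535 (3L, 2008722 to 2010751) stood at 20.3, 20.6, 21.5 and 24.1 CPM in BM24 and at 0, 0.228, 0.133 and 0.544 CPM in the parental stock. Its log2 change was 6.44 ± 0.22 (SE), with an adjusted p of 2.8e-21. CG8100 (3L, 14083615 to 14086421) had 29, 22.2, 33.2 and 22.9 CPM in BM24 against 0.673, 0.228, 0.334 and 0.155, a change of 6.35 ± 0.34. In both genes each BM24 library lay far above each parental one. CG44355 (3L, 12310805 to 12311961) had 27.5 to 30.9 CPM in BM24 and 0.112 to 0.933 in the parental stock, a change of 5.92 ± 0.17. CG15394 (2L) followed with 6.18 ± 0.21, CG16727 (3R) with 5.93 ± 0.33 and CG8837 (2L) with 5.52 ± 0.27. The files and the annotation used here give no function for these genes beyond their class.

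JhI-26, a gene first described as induced by juvenile hormone, was the only 1 of the 12 with a familiar name. It had 24, 21.7, 26.2 and 27.6 CPM in BM24 and 1.8, 0.987, 1.53 and 3.34 CPM in the parental stock, with no overlap, and a log2 change of 3.70 ± 0.18 (adjusted p = 4.98e-17). The other 5 were CG13876 (4.78 ± 0.16), CG11905 (4.63 ± 0.31), asRNA:CR45271 (3.64 ± 0.21), lncRNA:CR43941 (3.61 ± 0.21) and CG9302 (3.57 ± 0.12). CG13876, JhI-26, asRNA:CR45271 and lncRNA:CR43941 overlap an annotated neighbour, and the sources used here do not say whether counting used strand, so their counts are uncertain. The same limit holds for other genes named below, among them CG43795, lncRNA:CR44644, asRNA:CR45885, aub, zpg and EcR. lncRNA:CR43941, CG43707, CG43795, vas, bgcn, Prosbeta4R2 and SA-2 overlap a gene on their own strand, which a strand setting would not separate. So do janB, qin, RpL3, Fas3, Pxn and Cyp6a2, and su(w[a]) as given below.

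Noncoding RNAs made up 7 of the 12 largest decreases. The class held 1286 of the 12071 tested genes. It also held 115 of the 402 genes lower and 207 of the 664 genes higher by at least 2-fold. The antisense RNA asRNA:CR43464 (2L, 2000058 to 2003935) had 0.103, 0.204, 0.305 and 0.162 CPM in BM24 and 15.9, 18.2, 16.5 and 19.1 CPM in the parental stock, a log2 change of −6.45 ± 0.26 (adjusted p = 2.88e-19). It lies opposite CG33543, and reads of the 2 cannot be told apart without the strand setting. CG2772 (2L, 3445992 to 3447589) fell from 40.2 to 46.5 CPM in the parental libraries to 0.488 to 1.02 CPM in BM24, a change of −5.65 ± 0.23. The parental stock was the high group in every library of both genes. lncRNA:CR44490 (2L) changed by −5.12 ± 0.27 and lncRNA:CR44994 (2L) by −3.79 ± 0.24. The remaining 8, CG43795, lncRNA:CR44644, lncRNA:CR44309, lncRNA:CR44080, CG34025, CG42714, CG43707 and lncRNA:CR44505, changed by −3.66 to −2.89.

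**Figure D1:**
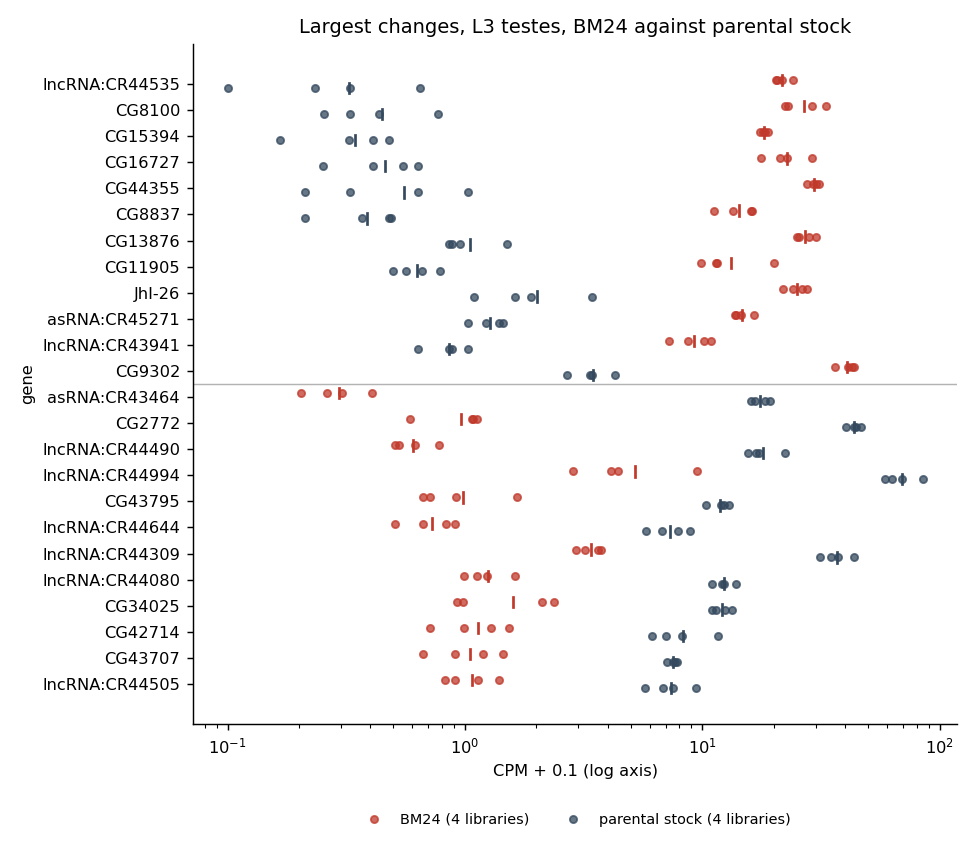
CPM plus 0.1 on a log axis for the 24 genes with the largest changes, 12 higher in BM24 above the line and 12 lower below it. Each point is a library (4 per group) and each bar a group mean, and in no gene do the groups overlap.

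A few genes were detected in 1 group only. There were 7 genes with 0 counts in all 4 parental libraries and at least 50 counts in all in BM24. The most abundant was lncRNA:CR43652 (3L), with 137, 65, 92 and 51 counts in the BM24 libraries. Against a floor of 3 counts over the parental group it was at least 93-fold higher. CG8960 had 57, 67, 81 and 66 counts, at least 73-fold higher, lncRNA:CR44750 80, 53, 56 and 50, at least 64-fold, lncRNA:CR44732 55, 40, 61 and 41, at least 53-fold, and lncRNA:CR45590 18, 16, 29 and 15, at least 21-fold. In the other direction, lncRNA:CR44076 (13, 27, 18 and 21 parental counts) was at least 33-fold lower in BM24 and lncRNA:CR44539 (14, 21, 20 and 15) at least 29-fold lower, and both had 0 counts in all 4 BM24 libraries. Floors cover counting error only.

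Of 15 spermatogonial genes, which act early in the germ line, 3 were higher and 3 lower, a share near the 42.9% called over all tested genes, with a median of 0.11 against 0.02 over all. The germline gap junction gene zpg had 15.4, 13.7, 14.2 and 16.6 CPM in BM24 and 7.74, 8.89, 8.81 and 7.46 in the parental stock (0.86 ± 0.14, adjusted p = 7.75e-06), and the RNA helicase gene vas rose by 0.37 ± 0.11 (0.34 and not called without BM24 replicates 3 and 4). The transcription factor gene esg, which acts in stem cells, fell from 17.5, 13.9, 15.3 and 11.7 CPM in the parental libraries to 4.81, 4.75, 5.31 and 5.44 in BM24 (−1.52 ± 0.15, adjusted p = 4.15e-10). Neither zpg nor esg overlapped between the groups. bgcn, which acts with bam to end the spermatogonial divisions, fell by 0.34 on the log2 scale, while bam itself ran from 18.7 to 22.1 CPM in BM24 and from 17.1 to 20 in the parental stock. Of the 15, 1 was higher and 2 were lower without BM24 replicates 3 and 4.

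The regulators that switch on the spermatocyte programme, the testis-specific TAFs and the tMAC complex, gave 5 higher and 2 lower of 14, with a median of −0.02. Over all tested genes 42.9% were called. The tMAC subunit gene mip40 had 139.7 to 150.9 CPM in BM24 and 88.7 to 95.6 in the parental stock (0.65 ± 0.07), and topi, another subunit gene, changed by 0.34 ± 0.05. vis fell by 0.40. aly, which is needed for the programme, overlapped between the groups, with 99 to 112.6 CPM in BM24 and 104.6 to 114.4 in the parental stock.

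Meiotic genes were more often lower. Of 17 genes for the meiotic cell cycle and chromosome pairing, 7 were lower and 3 higher, with a median of −0.12. ord, which holds sister chromatids together, had 105.6, 99.4, 98.6 and 94.1 CPM in BM24 and 163.5, 155.2, 161 and 163.5 in the parental stock (−0.69 ± 0.07, adjusted p = 3.33e-10). SA-2, also known as snm and needed for homologue pairing in male meiosis, fell from 71.4 to 84.9 CPM to 45.3 to 49.1 (−0.74 ± 0.08), and CycB3, a cyclin gene, by 0.43. The cohesion gene sunn went the other way, with 15.7 to 19.5 CPM in BM24 against 9.2 to 10.7 (0.78 ± 0.12). No library of either group overlapped the other group in these 4 genes. Of the 17, 5 were lower and 1 higher without BM24 replicates 3 and 4.

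Genes of later sperm formation that were called were lower, with small changes. Over all tested genes 42.9% were called, 23.2% higher and 19.7% lower. No list in this paragraph reached that total share in the main fit. Of 17 spermatocyte-transcribed differentiation genes, 4 were lower and 0 higher (median −0.08), among them Mst36Fa at 70.9 to 81.9 CPM in BM24 and 98.8 to 106.7 in the parental stock (−0.41 ± 0.09) and janB (−0.43 ± 0.11). Of 17 tested cup and comet genes, whose transcripts appear late and collect at spermatid ends, 6 were lower and 0 higher (median −0.19). d-cup had 39.6, 41.3, 41 and 47.9 CPM in BM24 and 59.4, 60.7, 51.1 and 62.3 in the parental stock (−0.46 ± 0.09). A fit of the 8 libraries alone called 13 of the 17, all lower. Of 8 sperm leucylaminopeptidase genes, which encode abundant sperm proteins, 3 were lower (median −0.14), and the groups overlapped in S-Lap7 (−0.36 ± 0.10). Of 5 tested genes for sperm nuclear proteins, tHMG2 alone was called (−0.27 ± 0.09). Its groups overlapped too, and without parental replicate 4 it was at −0.17 and not called.

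Testis-specific proteasome subunits stood apart from one another. Prosbeta4R2 had 23, 21.8, 23.1 and 29.1 CPM in BM24 and 107.1, 107.3, 111.9 and 127 in the parental stock, a log2 change of −2.23 ± 0.14 (adjusted p = 1.09e-14). Rpt6R, by contrast, rose from 172.6 to 211.5 CPM to 274.3 to 280.8 (0.53 ± 0.05). In all, 6 of the 14 tested were lower and 3 higher, with a median of −0.21. Of the 32 ubiquitous subunits, which serve all cells, 8 were higher and 0 lower (median 0.05), against 42.9% called over all tested genes. Rpn1 (0.20 ± 0.04) had the smallest adjusted p among them. The count of called subunits was 5 without BM24 replicate 2 or parental replicate 1 and 4 without BM24 replicate 3.

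Y-linked fertility genes, which are transcribed in spermatocytes and needed to form sperm, were more often higher than lower. Of 12 tested, 6 were higher and 1 lower, with a median of 0.32, and Pp1-Y1 had 0 counts in all 8 libraries. FDY had 80.9, 97.8, 93.1 and 92 CPM in BM24 and 40, 42.1, 38.9 and 42.5 in the parental stock (1.15 ± 0.11, adjusted p = 8.41e-10), but it is a Y copy of vig2 and may share reads with it. ARY rose by 0.66 ± 0.10, Pp1-Y2 by 0.66 ± 0.11 and PRY by 0.73 ± 0.14. ORY was the lower one (−0.43), with groups that overlapped. The summed list stood at 362.5 to 387.5 CPM in BM24 and 229.2 to 271.2 in the parental stock.

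The piRNA pathway silences transposons and, in testes, the X-linked Stellate repeats. Of its 28 tested genes, 7 were higher and 5 lower (median 0.10), a share near the 42.9% called over all tested genes. aub, which encodes a Piwi-family protein, had 68, 66.9, 66.9 and 80 CPM in BM24 and 24.1, 21.1, 28.8 and 22.2 in the parental stock (1.54 ± 0.10, adjusted p = 4.55e-14). Its partner gene AGO3 had 38.9 to 43.5 against 21.1 to 27.6 CPM (0.78 ± 0.10), and both were higher in every BM24 library. qin rose by 0.56 ± 0.09 and vret by 0.38 ± 0.06, while cuff was among the lower ones at −0.39. Without BM24 replicates 3 and 4, 5 of 29 were higher and 1 lower. Stellate genes summed to at most 1.99 CPM in any library, and 1 of the 14 was tested (not called). Among 8 dosage compensation genes, msl-2, the male-specific subunit of the complex that raises X output in somatic cells, was the 1 called. It had 31.5, 36.4, 34.8 and 33.9 CPM in BM24 and 18.1, 19.2, 19.1 and 15.9 in the parental stock (0.91 ± 0.07, adjusted p = 6.09e-13).

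Ribosomal protein genes that were called were higher, by small amounts. Of 88 cytoplasmic ribosomal protein genes, 43 were higher and 0 lower, with a median of 0.21. Over all tested genes 23.2% were higher and 19.7% lower, 42.9% in all. The summed level of the ribosomal protein genes was 28670 to 33979 CPM in BM24 and 25147 to 27343 in the parental stock. RpL3 had 458.7, 476.4, 461 and 515.8 CPM in BM24 and 308.1, 317.2, 326.5 and 320.2 in the parental stock (0.59 ± 0.08, adjusted p = 7.34e-07). The count was 22 without BM24 replicate 4, 26 without parental replicate 3 and 18 without BM24 replicates 3 and 4, where the median stayed at 0.20. Genes of oxidative phosphorylation went both ways, with 13 higher and 17 lower of 79 and a median of 0.01, against 42.9% called over all tested genes. The complex I paralogue gene ND-49L fell from 255 to 274.3 CPM to 141.9 to 153.5 (−0.85 ± 0.07).

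**Figure D2:**
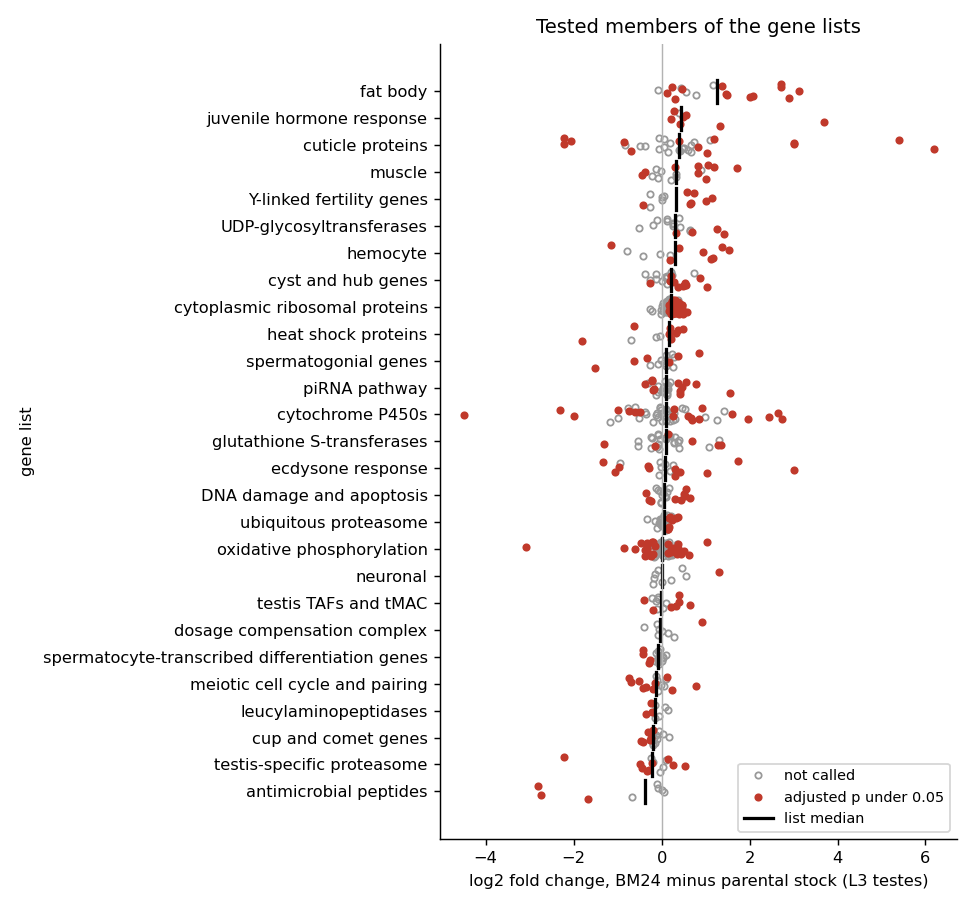
Log2 fold change of BM24 over the parental stock for every tested member of the lists with at least 8 tested genes, sorted by list median (black bar). Filled points passed an adjusted p under 0.05; the fat body median is 1.27 and the ribosomal protein median 0.21.

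Genes of the somatic cyst cells and the hub were more often higher than lower. Of 23 tested cyst and hub genes, 10 were higher and 1 lower (median 0.22), in all a share near the 42.9% called over all tested genes. The list summed to 645.5 to 678.6 CPM in BM24 and 567.1 to 586.8 in the parental stock. puc, a phosphatase gene induced by JNK signalling, had 32.2, 28.2, 29.3 and 29.5 CPM in BM24 and 16.2, 14.7, 16.5 and 18.2 in the parental stock (0.86 ± 0.09, adjusted p = 6.21e-09). shg, which encodes E-cadherin, had 85.2 to 92.9 against 59.5 to 64.8 CPM (0.52 ± 0.07), and Fas3, a hub adhesion marker, 3.73 to 4.55 against 1.68 to 2.47 (1.03 ± 0.17). In these 3 genes the groups did not overlap. The cyst cell genes tj and eya differed from each other, tj at 0.49 and called, and eya at 77 to 80.1 CPM in BM24 and 79.2 to 88.9 in the parental stock, not called. Summed over the 8 cyst and hub markers alone, the groups overlapped at 200.2 to 213.2 and 198.6 to 216.1 CPM. Leaving out BM24 replicates 3 and 4 gave 7 higher and 0 lower of 24.

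Of the 12 tested genes of the hemocyte list 7 were higher and 1 lower (5 and 1 without BM24 replicates 3 and 4). The collagen IV genes Col4a1 (62.1, 86.2, 96.3 and 125 CPM in BM24 against 39.8, 41.1, 39.3 and 48.4) and vkg (37.3, 51.5, 52.8 and 69.1 against 21, 22.5, 21.1 and 28.5) changed by 1.13 ± 0.19 and 1.17 ± 0.19. Pxn, a peroxidase of the extracellular matrix, changed by 1.37 ± 0.17. Hml, the clotting protein gene that marks larval hemocytes, had 12.8, 13.2, 8.36 and 11.6 CPM in BM24 and 23.3, 27.9, 27.8 and 22.9 in the parental stock (−1.15 ± 0.20, adjusted p = 1.42e-05). It was the 1 lower member. Summed over the 6 hemocyte markers, the groups overlapped at 36.1 to 41.9 CPM in BM24 and 39.1 to 46.3 in the parental stock. BM24 replicate 4, the library highest in fat body transcripts, was also the highest in both collagen genes; the part of fat body in this result was not tested, but without BM24 replicates 3 and 4 Col4a1 was at 0.80 and vkg at 0.92 and both were called. Of 17 tested muscle genes 7 were higher and 2 lower (median 0.33), with Mhc, the myosin heavy chain gene, at 2.48 to 3.9 CPM in BM24 and 0.786 to 1.8 in the parental stock (1.20 ± 0.23).

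Fat body genes rested largely on 2 libraries. Of 18 tested, 13 were higher and 0 lower, with a median of 1.27, but without BM24 replicates 3 and 4 the count was 4 and the median 0.17, and without replicate 4 alone it was 8. The larval serum protein gene Lsp1gamma had 22.8, 22.7, 142.3 and 379.5 CPM in BM24 and 23.5, 14.2, 19.9 and 7.62 in the parental stock, so that replicates 1 and 2 lay among or beside the parental libraries (3.13 ± 0.75). Without the other 2 it changed by 0.50, not called. Lsp1 genes are near-identical copies and may share reads. Apoltp behaved differently. This gene for a lipid transfer apolipoprotein had 19.1, 22.7, 24.8 and 28.8 CPM in BM24 and 2.36, 2.96, 2.94 and 4.2 in the parental stock, with no overlap, a change of 2.91 ± 0.17 (adjusted p = 3e-15) and 2.71 without BM24 replicates 3 and 4.

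**Figure D3:**
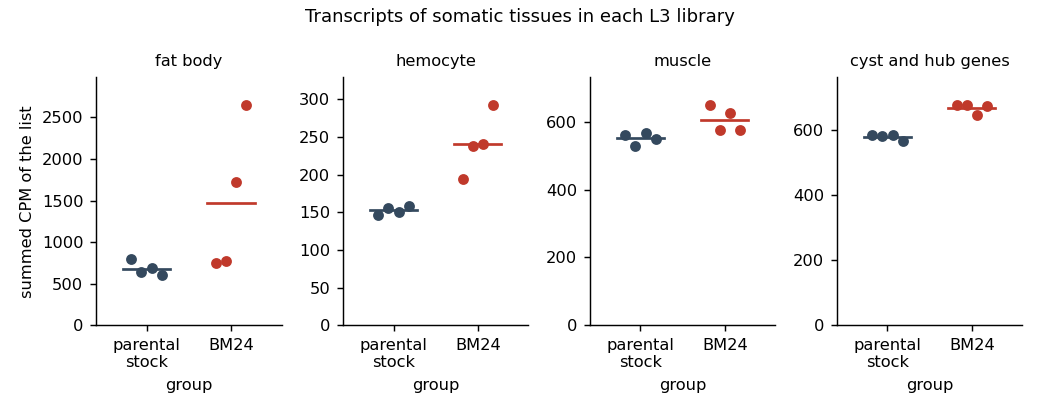
Summed CPM of 4 gene lists in each L3 library (points) with the group mean (bar), axes starting at 0. BM24 replicates 3 and 4 hold 1727 and 2652 CPM of fat body transcripts, above the 603.5 to 797.3 CPM of the parental stock. The cyst and hub, hemocyte and muscle lists do not overlap between groups, but the sums of the cyst and hub markers and of the hemocyte markers alone do. The 6 muscle markers sum to at most 9.31 CPM, against up to 650.4 CPM for the muscle list.

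Hormone response genes differed as well. Of 8 tested juvenile hormone genes, 7 were higher and 0 lower (median 0.45). Besides JhI-26, the hormone-degrading epoxide hydrolase genes Jheh3 (4.55, 5.5, 3.78 and 8.28 CPM in BM24 against 2.36, 2.58, 1.6 and 2.18) and Jheh2 changed by 1.33 ± 0.20 and 0.49 ± 0.11, and the receptor gene Met by 0.27 ± 0.08. Of 19 ecdysone response genes, 6 were higher and 5 lower (median 0.09). EcR, the ecdysone receptor gene, had 6.31 to 7.08 CPM in BM24 and 2.24 to 3.89 in the parental stock (1.04 ± 0.18), and E23, an ecdysone-induced transporter gene, 4.07 to 5.28 against 8.48 to 10.2 (−1.06 ± 0.17). Both genes kept the groups apart.

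Stress, defence and metabolic genes moved in parts. Of 12 heat shock genes 6 were higher and 2 lower, with Hsp83, a chaperone gene, at 3501 to 3688 CPM in BM24 and 2605 to 3004 in the parental stock (0.33 ± 0.07), and Hsp27 at 0.38 ± 0.07. Of 20 DNA damage and apoptosis genes 6 were higher and 3 lower, a share near the 42.9% of all tested genes, including the double-strand break repair gene nbs (0.51 ± 0.07) and Xrp1, a DNA damage response factor (0.52 ± 0.09). Among 8 tested antimicrobial peptide genes 3 were lower, with DptA at 1.4, 1.36, 0.915 and 0.731 CPM in BM24 and 3.59, 3.49, 3.34 and 3.96 in the parental stock (−1.67 ± 0.22). The cytochrome P450 family gave 12 higher and 7 lower of 49, from Cyp6a17 at −4.50 to Cyp313b1 at 2.74, against 42.9% called over all tested genes. It gave 7 higher and 7 lower of 52 without BM24 replicates 3 and 4. Cyp6a2, a P450 linked to insecticide resistance, had 5.28 to 5.93 CPM in BM24 and 20.4 to 25.5 in the parental stock (−1.98 ± 0.12), and Cyp310a1 15 to 23.9 against 4.04 to 5.99 (1.97 ± 0.15). Glutathione S-transferases gave 4 higher and 2 lower of 29, with the smallest adjusted p in GstE1 (1.27 ± 0.11). UDP-glycosyltransferases gave 4 higher and 0 lower of 16, and cuticle proteins 8 higher and 5 lower of 31. For these families too, the share over all tested genes was 42.9%. The 4 UDP-glycosyltransferase calls became 2 without BM24 replicates 3 and 4, 1 without BM24 replicate 4 or parental replicate 4, and 2 without parental replicate 2 or 3. Glutathione S-transferases then gave 2 higher and 2 lower without BM24 replicates 3 and 4. The cuticle gene TwdlD, at 3.05 to 4.27 CPM in BM24, had counts in 1 of the 4 parental libraries (0.155 CPM). In the E(spl) complex, a set of Notch targets, E(spl)m3-HLH rose by 1.86 ± 0.24 and E(spl)m2-BFM fell by 0.65. The latter was not called without BM24 replicate 2 or 3, without parental replicate 1 or 4, or without BM24 replicates 3 and 4. Of 9 tested neuronal genes, Gad1 alone was called (1.30 ± 0.43), and it was not called without BM24 replicate 3, without parental replicate 3 or 4, or without BM24 replicates 3 and 4.

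Among the genes named by marker alleles of the shared X chromosome, su(w[a]) gave a clear change. It encodes a regulator of pre-mRNA splicing and lies at X 1012779 to 1046040. It had 7.92, 7.4, 9.03 and 11.3 CPM in BM24 and 55.1, 56.7, 56.2 and 53.5 CPM in the parental stock. Every BM24 library lay far below every parental one, with a log2 change of −2.65 ± 0.08 and an adjusted p of 7.12e-22. Of the 3 tested genes that start next before it and the 3 that start next after it, CG18823 was called lower (−0.83 ± 0.19, adjusted p = 0.000714). Its means were 5.47 CPM in BM24 and 9.56 in the parental stock. TfIIA-S-2 (−0.09), CG14631 (−0.21), CG11638 (−0.31), CG32814 (0.19) and CG3021 (−0.18) were not called. CG11638, CG32814 and CG3021 lie within the annotated span of su(w[a]), so no gene past the far end of that span was examined. Against the other sterile lines CG14631 was called lower (−0.57) and CG18823 (0.41) and CG32814 (0.66) higher. TfIIA-S-2, CG11638 and CG3021 were not called there. The annotated span overlaps 6 other genes, of which CG3021, Rpp21 and CG14630 share its strand. w, the eye pigment transporter gene, fell from 31.6 to 34.6 CPM to 20.3 to 23.9 (−0.62 ± 0.07). cv, a crossvein gene, rose by 1.10 ± 0.32 from at most 0.622 CPM, and it was not called without BM24 replicates 3 and 4 (0.69). y, a pigmentation gene, was called at 0.66, but not without BM24 replicate 1, 2 or 3 or parental replicate 2, 3 or 4.

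The chromosomes that take part in the translocation differed from chromosome 3 by small amounts. On the X, 521 of 1888 tested genes were higher (27.6%) and 98 lower (5.19%), so 84.2% of called X genes were higher against 54% over all arms. The median change of X genes was 0.11, and 22 of 23 windows of 1 Mb had a median above 0. On chromosome 2 more genes were lower than higher, 597 against 514 on 2L and 677 against 457 on 2R. The median of 2R was −0.06, and 6 of its 21 windows lay above 0. On 3L 571 were higher and 480 lower, and on 3R 682 and 520. The small chromosome 4 had 40 of 87 genes higher and 5 lower (median 0.31), and the Y 14 of 22 higher and 2 lower (median 0.65).

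Arm levels, the mean log2 CPM of an arm's tested genes minus that of chromosome 3 genes, gave the same directions per library. The 2R level was −0.00 to 0.02 in the 4 BM24 libraries and 0.12 in all 4 parental ones, a difference of −0.11. That of 2L was −0.08, of chromosome 4 0.23, of the Y 0.37 and of the X 0.04. In each of these 5 arms the groups did not overlap, with an exact two-sided permutation p of 0.0286, the smallest that 4 against 4 libraries allows (0.0286 also after adjustment over the 5 arms). The X difference depended on which genes were averaged and how. It was 0.10 over genes with a mean log2 CPM of 3 or more (exact permutation p = 0.0286), 0.01 with the median over genes (exact permutation p = 0.8) and 0.02 with a prior count of 0.5 (exact permutation p = 0.0857). The 2L difference was −0.04 over those more abundant genes (exact permutation p = 0.0286) and −0.04 with the median (exact permutation p = 0.0571).

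**Figure D4:**
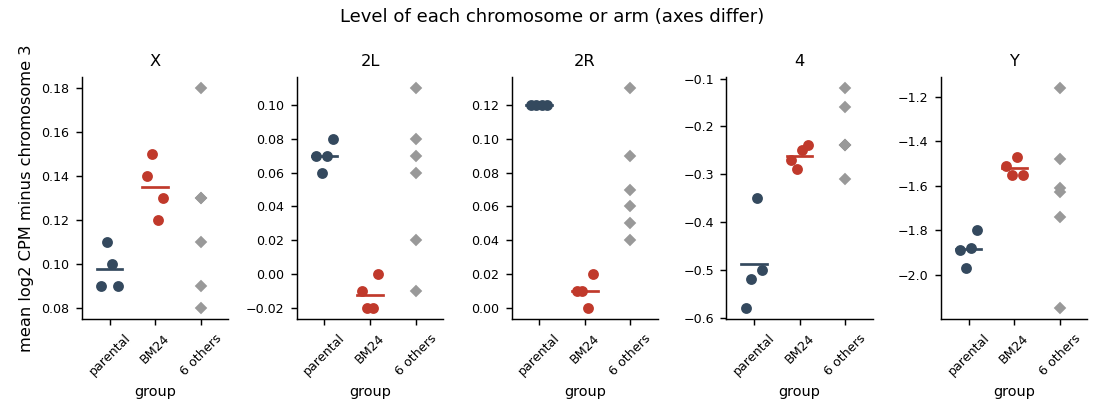
Arm level (mean log2 CPM of an arm's genes minus chromosome 3) per library for the parental stock and BM24, with bars at the group means, and diamonds for the means of the other 6 lines. Vertical axes differ between panels; the 2R level of BM24 (0.01) lies below those of all the other lines (0.04 to 0.13).

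Other translocation lines set these levels in context. Chromosome 4 stood at −0.49 in the parental stock, −0.26 in BM24 and −0.31 to −0.12 in the other 6 lines, and against the other sterile lines the median change of its genes in BM24 was 0.01. The X level of BM24 (0.13) lay within the 0.08 to 0.18 of the other lines. On 2L the level was −0.01 in both BM24 and BM6 and 0.02 to 0.11 in the remaining translocation lines. The 2R level of BM24 was below those of the other lines, but the median change of 2R genes from the parental stock was −0.06 in BM46 as in BM24. The Y level of BM24 (−1.52) lay between that of BM6 (−1.16) and that of BM4 (−2.15). Along chromosome 2 and the X, the windows with the largest median change and at least 20 tested genes were 2R 4000001 to 5000000 (0.34, 12 of 21 genes higher and 0 lower), X 16000001 to 17000000 (0.18, 37 of 107 higher and 4 lower) and X 20000001 to 21000000 (0.16, 21 of 62 higher and 2 lower). In the 2R window the median was 0.14 when the window was widened to 2 Mb, and it was 0.19 against the other sterile lines.

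BM24 was next set against the other sterile lines, which share its sterility class and its FM7i stock. Against the mean of BM1, BM5, BM6 and BM46, 2579 of 12071 genes were higher in BM24 (21.4%) and 2364 lower (19.6%), and against the fertile translocations BM4 and BM21, 1959 were higher and 1959 lower (16.2% each). Without BM24 replicates 3 and 4 the calls fell to 1564 and 1724, and to 1348 and 1232. The comparison with the parental stock gave 5183 calls for BM24, 5251 for BM1 (43.5%), 5301 for BM5 (43.9%), 5416 for BM6 (44.9%), 5490 for BM46 (45.5%), 4546 for BM4 (37.7%) and 4206 for BM21 (34.8%); all of these share the 4 parental libraries.

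The rule for these names took genes called the same way in both comparisons. Their mean log2 CPM over the 8 BM24 and parental libraries also had to be 1 or more. Genes less abundant than this were not ranked. Among those ranked, su(w[a]) was the largest decrease against the other sterile lines. Line means were 52.8 to 66.7 CPM in the other 6 lines, near the parental 55.4 ± 1.41 (SD, n = 4), against 8.91 ± 1.72 in BM24. The difference from the other sterile lines was −2.71 ± 0.07 (adjusted p = 7.37e-24), and that from the fertile lines was −2.83 (adjusted p = 1.59e-23). The low level was thus seen in BM24 and in none of the other 7 L3 groups. CG44085 (−1.59 ± 0.19), lncRNA:CR44490 (−2.31 ± 0.29), lncRNA:CR44994 (−2.29 ± 0.22), the mucin gene Muc30E (−1.95 ± 0.42) and lncRNA:CR45098 (−1.58 ± 0.17) were the other 5. Muc30E varied within BM24, with 9.78, 2.1, 0.183 and 2.03 CPM, and its fall against the parental stock was not called without BM24 replicates 3 and 4.

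Under the same rule, the 6 largest increases were CG11905 (3.86 ± 0.17), asRNA:CR45885 (3.26 ± 0.12), CG8100 (3.17 ± 0.14), CG5404 (2.69 ± 0.20), CG7091 (2.08 ± 0.30) and Irk2, an inwardly rectifying potassium channel gene (1.84 ± 0.17). Irk2 overlapped between BM24 and the parental stock (0.56, adjusted p = 0.032). That call was lost without BM24 replicate 1, 3 or 4, without parental replicate 1, 3 or 4, and without BM24 replicates 3 and 4. Irk2 means were 0.725 to 0.948 CPM in the other sterile lines, below the parental 2.07. They were 3.09 in BM24 and 2.49 and 3.61 in the fertile BM4 and BM21 (BM24 minus fertile 0.05, adjusted p = 0.864). In CG7091 the BM24 libraries (3.05 to 8.85 CPM) overlapped those of BM6 (0.901 to 7.9 CPM). For CG11905, BM24 held 9.78 to 20 CPM and the other sterile lines had means of 0.643 to 1.17, but the fertile BM4 and BM21 had means of 8.01 and 20.9. asRNA:CR45885 showed the like order, with 15.7 to 27.1 CPM in BM24, 1.92 to 2.89 in the other sterile lines and 37 and 47.8 in the fertile ones. BM24 did not differ detectably from the fertile lines in CG11905 (0.02, adjusted p = 0.944) or in CG8100 (0.11, adjusted p = 0.618). CG5404 was higher in BM24 than in both classes, at 6.59 to 10.9 CPM against line means of 0.861 to 3.95 elsewhere among the translocations and 0.765 ± 0.466 in the parental stock (2.78 against the fertile lines, adjusted p = 5.7e-11).

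**Figure D5:**
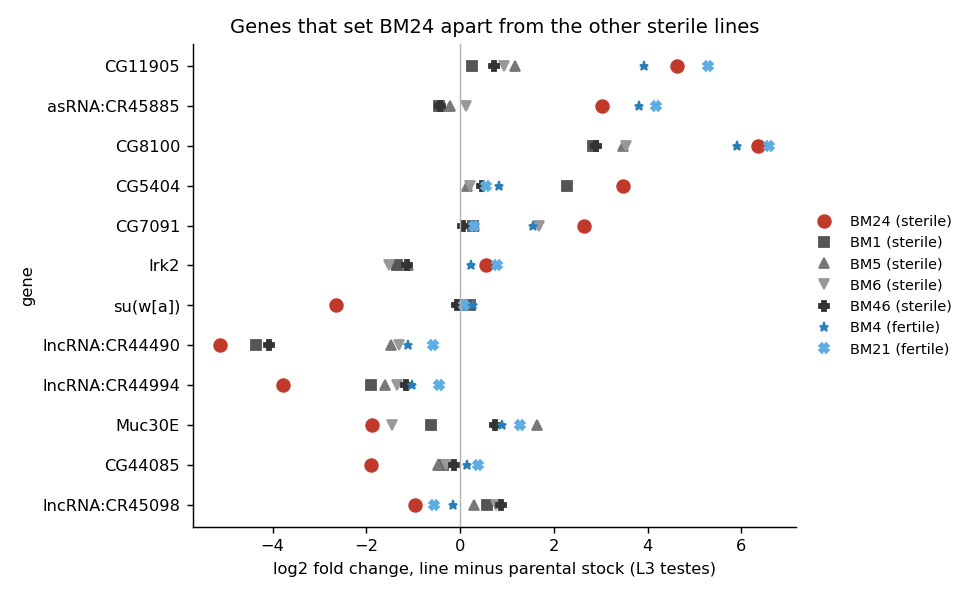
Log2 fold change of each of 7 lines over the parental stock in L3 testes for 12 genes, with BM24 as large circles. They are the 6 largest differences each way from the other sterile lines among called genes with a mean log2 CPM of 1 or more. All lines share the parental libraries; for su(w[a]) BM24 lies at −2.65 and the other lines at −0.07 to 0.27.

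Several genes with the largest changes from the parental stock had levels in the other lines that were also far from the parental one. CG44355 had line means of 15.2 to 34.8 CPM in the other 6 lines, CG13876 17.5 to 30.2 and CG15394 6.58 to 19.3, against 0.452, 0.95 and 0.245 CPM in the parental stock. For these 3 genes the difference of BM24 from the other sterile lines was −0.09, −0.12 and 0.02, and none was called. JhI-26 divided the lines by class, with means of 23.4 to 41.4 CPM in the other sterile lines, 0.95 in BM4 and 3.91 in BM21. BM24 was 3.65 above the fertile lines in it (adjusted p = 1.3e-19). asRNA:CR43464 was low in the sterile lines (0.115 to 0.988 CPM) and at 12.2 and 16 CPM in BM4 and BM21. Apoltp had 22.8 to 43.7 CPM in the other sterile lines and 4.58 and 5.31 in the fertile ones. aub and msl-2 were above the parental level in each of the 6 other lines as well, with means of 47.3 to 59.7 and 25.7 to 34.7 CPM. The FM7i and C(1)M4 stocks split the lines in the same way as sterility, so these cannot be told apart.

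Against the other sterile lines, ribosomal protein genes gave 70 higher and 1 lower of 88 (median 0.27), cup and comet genes 0 higher and 13 lower of 17 (median −0.21) and piRNA genes 16 higher and 1 lower of 28 (median 0.16). Fat body genes gave 1 higher and 2 lower of 18 (median −0.11). The medians over all tested genes were 0.01 here and 0.02 against the parental stock. In this comparison 40.9% of all tested genes were called, 21.4% higher and 19.6% lower. The list counts against the other sterile lines were not repeated with BM24 libraries left out. Calls over all genes fell from 4943 to 3288 without the 2 BM24 libraries rich in fat body transcripts, and to 3652 without BM24 replicate 2.

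Adult testes of the same lines, from flies 1 to 5 days old, were also sequenced, with 2 of the 4 adult BM24 libraries at 233047 and 43347 counts. In adults 2327 of 13055 genes were higher in BM24 and 2473 lower (17.8% and 18.9%). The change differed between the stages for 2121 genes (16.2%), 1141 with a more positive change in L3 (8.74%) and 980 with a more negative one (7.51%), but DESeq2 called 1011, a scaling by median ratios split them 1680 to 755, and the count was 1286 without adult BM24 replicate 1. Without the adult libraries under 1000000 counts it was 2790, with 1351 more positive and 1439 more negative. Without L3 BM24 replicates 3 and 4 it was 1612, with 867 more positive and 745 more negative. su(w[a]) was lower at both stages, with 4.81 CPM over the pooled adult BM24 counts against 31.8 in the adult parental ones (−2.75, adjusted p = 3.94e-10), and its change did not differ detectably between them (0.09 ± 0.38, adjusted p = 0.941). JhI-26 was higher in adults too (2.79, adjusted p = 1.05e-11). CG44355 had 1533 adult BM24 counts and 0 adult parental ones, at least 834.3-fold higher. CG42714 had 1 adult BM24 count against 608 parental ones and stood at 1.03 against 8.17 CPM in L3.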

How the data were processed

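Poly(A) RNA of pooled larval testes was measured in 8 libraries, read as 50 bp single ends from stranded libraries, per the labels' protocols. The authors deposited raw read counts for each gene, without normalization. Per the submitters' processing notes, the tools were bcl2fastq 1.8, cutadapt, HISAT2 2.1.0 and featureCounts 1.6.1; the sources used here give neither genome build nor strand setting. Coordinates come from the deposited file; 17494 of 17606 genes have the same ones in Ensembl BDGP6. Descriptions carry well-like prefixes, A1 to A4 for parental and C1 to C4 for BM24 libraries, so position and group cannot be told apart.

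Counts were tested with edgeR 4.0.16 in R 4.3.3 (data.table package, version 1.17.8): TMM scaling, filterByExpr and a quasi-likelihood F test in a fit of all 32 L3 libraries with 1 mean per line, or of all 64 for the stage difference. DESeq2 1.42.0 and limma 3.58.1 voom were alternatives. SE is the absolute log2 change over the root of F. Counts were simulated for BM24 against parental (11944 genes) with 100 genes changed 2-fold and 100 changed 4-fold. Of these, 92% and 100% were recovered, with 11 false calls among unchanged genes. Far more genes, 5183, were called in the data. Variation shared between genes, such as that of fat body, was not simulated. The simulation therefore cannot say how many of the calls in the data are false. CPM is scaled by TMM in single genes and by total counts in lists and markers. No 2 libraries of a group were identical, and their counts differed beyond sampling noise in all 12 pairs (chi-square over degrees of freedom of 4.06 to 17.2).

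Named genes were the 12 largest changes each way in the main comparison, 6 each way against the other sterile lines, up to 4 called members of each of 33 lists, and set markers; other genes given by name (cuff, ORY, Cyp6a17, Cyp313b1 and the neighbours of su(w[a])) were chosen after their values were seen. The members, lists and rules were chosen with earlier results of these data known. Spike-in counts were not used here. Alternatives were scalings, filters, tools, the replicate block, left-out libraries and, added after the data were seen, BM24 without replicates 3 and 4.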

Additional observations from a re-analysis of the deposited data

Results flagged for a closer look

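Within groups of 4 libraries, 11 of 142 value sets held 1 library whose gap to its nearest neighbour, as a share of the group's range, exceeded Dixon's critical value, and chance gives about 1 in 20. Among genes, BM24 replicate 3 stood alone in CG11905 (share 0.845; 20 CPM against 9.78 to 11.4) and in CG2772 (0.916; 0.488 CPM against 0.974 to 1.02), and BM24 replicate 2 in Irk2 (0.83; 2.72 CPM against 3.16 to 3.25). In the parental stock, replicate 3 stood alone in CG13876 (0.851; 1.4 CPM against 0.76 to 0.855), and replicate 1 in asRNA:CR45885 (0.925; 3.59 CPM against 2.34 to 2.43) and in lncRNA:CR45098 (0.886; 3.93 CPM against 2.41 to 2.58). Among summed lists, BM24 replicate 3 was the lone library in Y-linked fertility genes (0.896; 387.5 CPM against 362.5 to 365.1) and in cyst and hub genes (0.875; 645.5 CPM against 674.5 to 678.6). Parental replicate 3 was the lone library in neuronal genes (0.882; 35.8 CPM against 30.1 to 30.8) and parental replicate 4 in juvenile hormone genes (0.857; 96.2 CPM against 102.4 to 103.4). The 2L arm level of the parental stock was also set apart by 1 library (0.872), within a range of 0.06 to 0.08.

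The change from the parental stock differed between L3 and adult testes for 11 of the 24 genes with the largest L3 changes. The test was the edgeR quasi-likelihood F test of the difference, with Benjamini-Hochberg adjustment. Over all genes tested for it the share was 16.2%. The L3 change that picked these 24 is part of the tested difference, so the 2 shares are not alike. The L3 minus adult difference on the log2 scale was −3.79 for lncRNA:CR44535, −2.07 for CG8837, −1.80 for CG2772, −1.34 for CG34025, −1.24 for lncRNA:CR44505 and −0.75 for lncRNA:CR44309. It was 1.05 for CG9302, 2.23 for CG43795, 3.11 for lncRNA:CR44994 and 5.13 for CG42714. For CG44355 the fitted difference was −6.60, but its adult parental counts were 0, so this value depends on the prior count. The values of lncRNA:CR44535, with 1 adult parental count, and CG42714, with 1 adult BM24 count, also rest near the floor. All 11 were also called without the adult libraries under 1000000 counts. CG2772, CG44355, CG42714 and lncRNA:CR44994 kept their call in every alternative. DESeq2 did not call CG34025, lncRNA:CR44505, lncRNA:CR44309, CG9302 or CG43795, with adjusted p from 0.0638 to 0.307. lncRNA:CR44309 was also not called with RLE scaling, and lncRNA:CR44505 neither with limma voom nor without L3 BM24 replicates 3 and 4. Calls were also lost without L3 parental replicate 4 (lncRNA:CR44535, CG8837, lncRNA:CR44309), L3 parental replicate 1 (lncRNA:CR44505), L3 BM24 replicate 1 (CG34025, CG43795, lncRNA:CR44505, lncRNA:CR44309), replicate 2 (CG34025) or replicate 4 (lncRNA:CR44505). The same held for adult BM24 replicate 1 (CG34025, CG43795) or 4 (CG43795, lncRNA:CR44505, lncRNA:CR44309) and adult parental replicate 1 or 2 (lncRNA:CR44505).

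Of the 24 genes named for their change from the parental stock, 15 differed in BM24 from the mean of the other 4 sterile lines. Over all tested genes 40.9% did, but the 24 were picked for large changes in BM24, so the shares are not alike. Adding the genes chosen for this difference, whose calls were fixed by that choice, gave 23 of 32. Besides the 12 genes chosen for this difference, namely su(w[a]) (−2.71), lncRNA:CR44490 (−2.31), lncRNA:CR44994 (−2.29), Muc30E (−1.95), CG44085 (−1.59), lncRNA:CR45098 (−1.58), Irk2 (1.84), CG7091 (2.08), CG5404 (2.69), CG8100 (3.17), asRNA:CR45885 (3.26) and CG11905 (3.86), there were 11 more. CG34025 (0.85) and CG9302 (0.60) were higher in BM24. CG34025 was not called with limma voom or without BM24 replicate 3 (0.63) or 4 (0.61), and was at 0.08 without both. Lower in BM24 were lncRNA:CR44644 (−1.35), lncRNA:CR44505 (−1.28), CG43795 (−1.25), lncRNA:CR44309 (−1.24), CG43707 (−0.99), CG2772 (−0.90), asRNA:CR45271 (−0.69), lncRNA:CR44535 (−0.32) and JhI-26 (−0.26). Of these, CG2772 was not called with limma voom or without BM24 replicate 3 (−0.71), CG43795 not without BM24 replicates 3 and 4 (−0.86), and JhI-26 not with library size alone or without BM24 replicate 1 (−0.25) or 2 (−0.21).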

How the results depend on the processing

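All 24 genes named for their change from the parental stock kept their direction and call in each of 18 alternatives, left-out libraries included. Of 69 alternative counts of called genes, 63 were within 1.5 times the reported count. The main count of 5183 ran from 5057 (limma voom) to 6061 over other scalings, filters, tools and fits, from 4631 to 4891 without 1 library, and was 1066 with a 2-fold minimum. Without BM24 replicates 3 and 4, 4943 calls against the other sterile lines became 3288 and 3918 against the fertile lines became 2580; without 1 BM24 library these ran from 3652 to 4255 and from 3238 to 3442. The stage difference was the least stable count. Against 2121, it was 1011 with DESeq2, 1319 in a fit of the 16 libraries alone and 1286 to 2433 without 1 library (lowest without adult BM24 replicate 1), and 2790 without the adult libraries under 1000000 counts. The share of these calls more positive in L3 was 53.8%, 69% with RLE scaling, 65.1% with TMM on chromosome 3 genes and 48.4% without those adult libraries. The cause was not tested. The X arm level was 0.10 over genes with a mean log2 CPM of 3 or more, and fell short with a prior count of 0.5 (0.02), the median over genes (0.01) and 3L as reference (0.03), and the 2L level with the median (−0.04). Without 1 library, where 3 against 4 allows 0.0286 at the smallest, exact permutation p reached 0.0571 for the X (0.03 to 0.04) and for chromosome 4 (0.19 to 0.27). Called members of a list moved by over 1.5 times in 39 of 594 cases. Ribosomal protein genes went from 43 to 72 in the 8 libraries with the block, and oxidative phosphorylation genes from 30 to 46. Fat body genes went from 13 to 7 with limma voom, ubiquitous proteasome genes from 8 to 4 without BM24 replicate 3, and UDP-glycosyltransferases from 4 to 1 in a fit of the 8 libraries alone. Without BM24 replicates 3 and 4 the direction turned for Fbp1 (−0.68) and Lsp2 (−0.38), neither called there, and, against the other sterile lines, for CG16727 (−0.05). Other turns were of differences that were not called. Against the other sterile lines, CG15394 was at −0.00 with TMM on chromosome 3 genes and from −0.01 to 0.03 without 1 BM24 library, and lncRNA:CR43941 from −0.18 to 0.01. In the stage difference without 1 library, CG13876 ran from −0.04 to 0.39, CG15394 from −0.10 to 1.44, lncRNA:CR44490 from −0.80 to 0.39 and lncRNA:CR44644 from −0.29 to 0.10. With the replicate number as a block the counts were 5130, 4901, 3857 and 1975. In the 8 libraries alone the main count was 6061 with the block and 5452 without it. Same-numbered BM24 and parental libraries deviated together weakly (correlations of 0.18, 0.04, 0.04 and 0.09), though each BM24 library correlated best with its own number. The labels do not say whether a shared number marks a pairing, and the main fit left it out.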

Other observations

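Noncoding RNAs, long noncoding and antisense, had a share of called genes near that of protein-coding genes and more changes of at least 2-fold for their number; whether the lower counts of many noncoding genes bear on this was not tested. Of 1286 tested, 350 were higher in BM24 and 266 lower (47.9% called), and 207 rose and 115 fell by at least 2-fold. Of 10619 protein-coding genes, 2411 were higher and 2089 lower (42.4%), and 444 rose and 275 fell by at least 2-fold. Small nuclear RNA genes gave 1 higher and 5 lower of 9, and of 26 small nucleolar RNA genes 1 was lower. Libraries were made from poly(A) RNA, so both classes of small RNA rest on reads that this selection leaves.

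Genes undetected in the parental L3 libraries had counts in other lines. CG8960, with 271 counts over the 4 BM24 libraries, had 608 in the fertile BM4 and 251 in the fertile BM21, but between 1 and 7 in each of BM1, BM5, BM6 and BM46. lncRNA:CR43652 had 92 to 347 counts in each of the other 6 lines, lncRNA:CR46001 (75 in BM24) 20 to 131 and lncRNA:CR45741 (55 in BM24) 2 to 68. Of the genes undetected in BM24, lncRNA:CR44539 had 0 counts in BM1, BM5, BM6 and BM46 as well, 24 in BM4 and 2 in BM21, while lncRNA:CR44076 had 65 in BM46 and 1 to 4 in BM1, BM5 and BM6. These are raw counts of 4 libraries per line, not scaled for depth.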
